A study of Homo sapiens with 6 samples.

Results

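The UDP-glucuronosyltransferases (UGTs) described here are 9 genes, UGT1A1, UGT1A6, UGT2A3, UGT2B4, UGT2B7, UGT2B10, UGT2B11, UGT2B15 and UGT2B17, of the 60675 genes counted in the experiment. They were chosen by measured values of the comparison of control and MTR4 KD cells, in which UGT1A1 was lower while other conjugation genes were higher. Their differences between those groups are therefore given as a description, with no p-value, and counts of members past a threshold restate the choice. The cells were PLC/PRF/5, an established line from a human hepatocellular carcinoma grown in DMEM with 10% fetal bovine serum. RNA-seq of total RNA was made from 3 control libraries and 3 libraries after knockdown of MTR4 (MTREX), the RNA helicase that feeds transcripts to the nuclear exosome. The labels do not say whether a group's libraries came from separate cultures or from 1 clone, so their spread may be technical. The library titles name only control and MTR4 KD. The paper describes its RNA-seq as made before and after an inducible knockdown, which was switched on with doxycycline (Doxy). If so, Doxy treatment and knockdown cannot be told apart here, since the series held no Doxy-treated library with a scramble shRNA. MTREX had 72.2, 87.4 and 74.4 CPM (reads scaled to a common library size) in the control libraries and 44.6, 48.8 and 44.1 CPM in the MTR4 KD libraries, that is, -0.77 on the log2 scale (adjusted p = 0.00641, edgeR's quasi-likelihood test).

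UGTs sit in the membrane of the endoplasmic reticulum and transfer glucuronic acid from UDP-glucuronic acid to bilirubin, bile acids, steroids and drugs, which makes these compounds soluble enough to leave in bile or urine. The liver is the main site of this reaction. UGT1A enzymes are spliced from a row of alternative first exons to a common set of later exons, so they differ in the part that binds the acceptor and share the part that binds the sugar donor. The UGT2 enzymes described here are encoded by separate genes that arose by duplication.

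The libraries held 60686786 to 72708682 reads on genes. Non-uniquely aligned reads made up 34.7% to 37.5% of the entries in control 1, control 3 and MTR4 KD 3, and 14.8% to 18.2% in control 2, MTR4 KD 1 and MTR4 KD 2. The libraries are called here, by this share, the set with more and the set with fewer non-unique reads. Each set held both groups. All 12 hepatocyte markers examined were above 10 CPM, with a summed level of 22600 to 24100 CPM in control and 22900 to 24600 CPM in MTR4 KD libraries, and ALB, APOA1, APOH and TTR, 4 of the 12, rose (edgeR's test). The hepatocyte keratins KRT8 and KRT18 went the other way, with a summed level of 1730 to 1960 CPM in control and 1540 to 1580 CPM in MTR4 KD libraries, and KRT18 fell (adjusted p = 0.0435, edgeR) while KRT8 had an adjusted p of 0.114. The markers PTPRC, COL1A1 and COL3A1 of blood cells and fibroblasts summed to 4.95 to 7.66 CPM in control and 3.49 to 7.67 CPM in MTR4 KD libraries. The bile duct keratins KRT7 and KRT19 summed to 1.01 to 1.43 CPM and 0.255 to 0.995 CPM, and KRT19 fell. The part of these marker differences in the UGT values was not tested.

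The UGT1A members lie on chromosome 2 and overlap each other. UGT1A1 spans chr2:233760270-233773300 and UGT1A6 spans chr2:233691702-233773300 (GRCh38.p14, RefSeq), with the same end. In the GENCODE annotation lifted to GRCh37, used for exon structure, transcript sequences and gene types but not for positions, the canonical transcript of each has 5 exons. Of the 1599 coding bases of UGT1A1, 735 lie in exons that other UGT1A genes also use. Over the first exon the coding sequences of UGT1A1 and UGT1A6 were 60.0% identical, and over the later exons they were 100% identical. A read that falls only in the common exons cannot be given to 1 UGT1A gene, so the count of a UGT1A gene comes mainly from its own first exon and from other exons of its own. Ambiguous reads made up 5.89% to 8.29% of the entries per library over all genes, and those of the UGT1A locus cannot be told apart from the rest of that class.

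The 7 UGT2 members lie on chromosome 4. From low to high coordinates these were UGT2B17 at chr4:68537173-68576322, UGT2B15 at chr4:68646597-68670652, UGT2B10 at chr4:68815994-68832023, UGT2A3 at chr4:68928463-68951804, UGT2B7 at chr4:69051375-69112987, UGT2B11 at chr4:69199951-69224984 and UGT2B4 at chr4:69480165-69526014. Coding sequences of the 6 UGT2B members were 85.1% to 96.5% identical over the 15 pairs. UGT2B15 and UGT2B17 formed the closest pair at 96.5%, followed by UGT2B10 and UGT2B11 at 95%. UGT2A3 was 71.3% to 73.1% identical to the UGT2B members, and the UGT1A members were 60.0% to 61.8% identical to those of UGT2.

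How much of each transcript could be told from other genes was measured by exact matches of windows. In windows of 100 bases, 61.1% of the UGT1A1 transcript and 58.8% of the UGT1A6 transcript also occurred in another gene, for both in the common exons of the locus. Such windows made up 12.4% of UGT2B15 and 10.6% of UGT2B17, each matching the other, 9.2% of UGT2B11 and 4.6% of UGT2B10. None of the windows of UGT2A3, UGT2B4 and UGT2B7 occurred elsewhere. In windows of 50 bases, the shares rose to 40.5% in UGT2B11, 27.1% in UGT2B15, 23.3% in UGT2B17 and 22.0% in UGT2B10. The values of UGT2B10, UGT2B11, UGT2B15 and UGT2B17 are thus uncertain to the extent that reads from near-identical copies were dropped or misplaced. UGT2B11 also overlaps an antisense gene by 435 exonic bases. UGT1A6 overlaps antisense genes too, with 3338 exonic bases shared with genes of either strand and 2278 with genes of its own strand. Whether the counting used strand is not given in the sources used here.

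RefSeq promoter sequences (GRCh38.p14) were at hand for 7 of the 9 members, all but UGT2B4 and UGT2B17. In the 250 bases before the start site of the entry, 6 of these 7 held the letters TTAACTT on the strand of the gene, each once. The first base lay 43 to 65 bases before that start. The entries of UGT2B7 (chr4:69096224-69096523) and UGT2B11 (chr4:69214699-69214998) lie inside the gene spans given above, so their starts are not the outer ends of those genes. The motif was chosen after the sequences had been read. Over all 35116 promoters in the table, 466 (1.3%) held it on the strand of the gene, 907 (2.6%) held it or its reverse AAGTTAA on either strand, and 0.44% held it on the strand of the gene within the last 100 bases. Neither UGT1A6 entry had a match. The 40 bases around each match are shown because the gene that was lower in MTR4 KD cells and 5 genes that were higher carry the same letters at about the same place. Capitals mark the motif, and each line reads 5′ to 3′ on the strand of the gene.
UGT1A1, chr2:233760189-233760228, plus strand: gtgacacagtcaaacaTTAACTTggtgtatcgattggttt
UGT2A3, chr4:68951824-68951863, minus strand: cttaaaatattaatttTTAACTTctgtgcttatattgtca
UGT2B7, chr4:69096414-69096453, plus strand: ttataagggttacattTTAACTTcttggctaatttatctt
UGT2B10, chr4:68815925-68815964, plus strand: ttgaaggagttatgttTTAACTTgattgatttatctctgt
UGT2B11, chr4:69214778-69214817, minus strand: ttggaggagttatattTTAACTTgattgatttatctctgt
UGT2B15, chr4:68670683-68670722, minus strand: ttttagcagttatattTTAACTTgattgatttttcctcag
The windows of UGT2B10 and UGT2B11 matched at 38 of 40 bases and those of UGT2B11 and UGT2B15 at 31. The UGT1A1 window matched that of UGT2B10 at 22 of 40 bases and that of UGT2A3 at 17. A match of letters is a description of the sequence and no evidence of binding.

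Levels were compared between genes per length, as CPM per kilobase of exon that no other annotated gene overlaps. UGT1A1, the enzyme that conjugates bilirubin, stood first in every library, at 36.0, 33.7 and 36.1 CPM per kilobase in the control libraries and 16.4, 18.1 and 17.6 in the MTR4 KD libraries. UGT2A3, an enzyme of liver and intestine, was next, at 8.45, 7.78 and 8.14 and then 10.8, 9.95 and 11.2 CPM per kilobase. In control libraries the mean levels then went down through UGT2B11 (3.87), UGT2B4 (2.74), UGT2B10 (1.48), UGT2B7 (1.31), UGT2B15 (0.641), UGT1A6 (0.234) and UGT2B17 (0.0412). The ranges of all 8 pairs of neighbours in that order were apart in control libraries, and 6 of 8 were in MTR4 KD libraries, where UGT2B7 overlapped with UGT2B15 and UGT1A6 with UGT2B17. With the unique length of the canonical transcript only, the places of UGT2B7 and UGT2B10 and those of UGT1A6 and UGT2B15 were exchanged in control libraries with overlapping ranges, while UGT1A1 (88.7), UGT2A3 (8.39), UGT2B11 (4.45) and UGT2B4 (3.25) kept theirs.

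UGT1A1 was the only member that was lower in MTR4 KD cells. It had 79.9, 74.7 and 80.1 CPM in the control libraries and 36.5, 40.2 and 39.1 CPM in the MTR4 KD libraries, from 4831 to 5406 and from 2238 to 2687 reads. The groups did not overlap. The mean was 78.2 ± 3.07 CPM (SD, n = 3) in control and 38.6 ± 1.93 CPM (SD, n = 3) in MTR4 KD cells, 2.03 times lower, with a fitted log2 fold change of -1.02 (SE 0.0652). Within the set with more non-unique reads the log2 difference was -1.03, and within the other set it was -0.96.

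UGT1A6, which conjugates small phenols and shares the later exons of UGT1A1, was near the lower end of detection. It had 0.405, 0.539 and 0.332 CPM in control and 0.538, 0.509 and 0.489 CPM in MTR4 KD libraries, from 20 to 39 reads per library. The groups overlapped, the log2 fold change was 0.26 (SE 0.287), and the sign differed between the sets of libraries (0.41 and -0.04). UGT1A4, with 0.600, 0.732 and 0.929 CPM in control and 0.440, 0.389 and 0.620 CPM in MTR4 KD libraries, was the only other coding UGT1A gene among those matched that passed the filter on low counts, and its groups overlapped. When all UGT1A genes matched in the counts were added up, which leaves out UGT1A3 and UGT1A5, the log2 fold change of the sum was -0.998, close to that of UGT1A1 alone.

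UGT2A3 had 26.0, 23.9 and 25 CPM in control and 33.3, 30.6 and 34.6 CPM in MTR4 KD libraries, and the groups did not overlap. Its mean went from 25 ± 1.04 to 32.8 ± 2.03 CPM (SD, n = 3 each), a log2 fold change of 0.39 (SE 0.0754). The difference was of like size within the set with more non-unique reads (0.44) and within the other set (0.42).

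UGT2B4 and UGT2B7 were the UGT2 members with the smallest differences. UGT2B4, which conjugates bile acids, had 6.97, 6.38 and 7.10 CPM in control and 8.85, 8.61 and 8.34 CPM in MTR4 KD libraries, a log2 fold change of 0.34 (SE 0.0874). UGT2B7, which conjugates morphine and many other drugs and steroids, had 3.15, 2.68 and 3.08 CPM in control and 3.63, 4.06 and 3.39 CPM in MTR4 KD libraries, a log2 fold change of 0.32 (SE 0.132). Neither pair of groups overlapped, but for UGT2B7 the gap between the highest control and the lowest MTR4 KD library was smaller than the range within either group. Within the sets of libraries the log2 differences of UGT2B7 were 0.12 and 0.52.

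UGT2B10 and UGT2B11, the pair with 95% coding identity, were both higher. UGT2B10, which joins glucuronic acid to the nitrogen of nicotine and other amines, had 4.02, 4.13 and 4.06 CPM in control and 6.13, 6.36 and 7.03 CPM in MTR4 KD libraries, a log2 fold change of 0.68 (SE 0.10). UGT2B11, whose substrates are less well known, had 7.95, 7.25 and 7.10 CPM in control and 9.73, 10.7 and 11.8 CPM in MTR4 KD libraries, a log2 fold change of 0.53 (SE 0.102). The control libraries of UGT2B10 lay closer together than those of any other member relative to their mean, at 4.07 ± 0.0546 CPM (SD, n = 3).

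UGT2B15 and UGT2B17, which conjugate androgens and are the closest pair in sequence, had the largest fitted differences on the lowest UGT2 levels. UGT2B15 had 0.827, 1.42 and 1.86 CPM in control and 3.10, 2.56 and 3.43 CPM in MTR4 KD libraries, a log2 fold change of 1.14 (SE 0.289). Control 1 stood at 51 reads against 103 and 112 in the other control libraries. UGT2B17 had 8, 10 and 3 reads in control and 56, 19 and 21 reads in MTR4 KD libraries, a log2 fold change of 2.24 (SE 0.61). The groups were apart for both genes, and MTR4 KD 1 alone held 56 of the UGT2B17 reads. UGT2B17 passed the filter on low counts only through the MTR4 KD libraries. Without MTR4 KD 1 the log2 fold change of UGT2B17 was 1.54. With the reads of the pair added together, which removes any exchange of reads between them, the log2 fold change was 1.26.

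**Figure D1:**
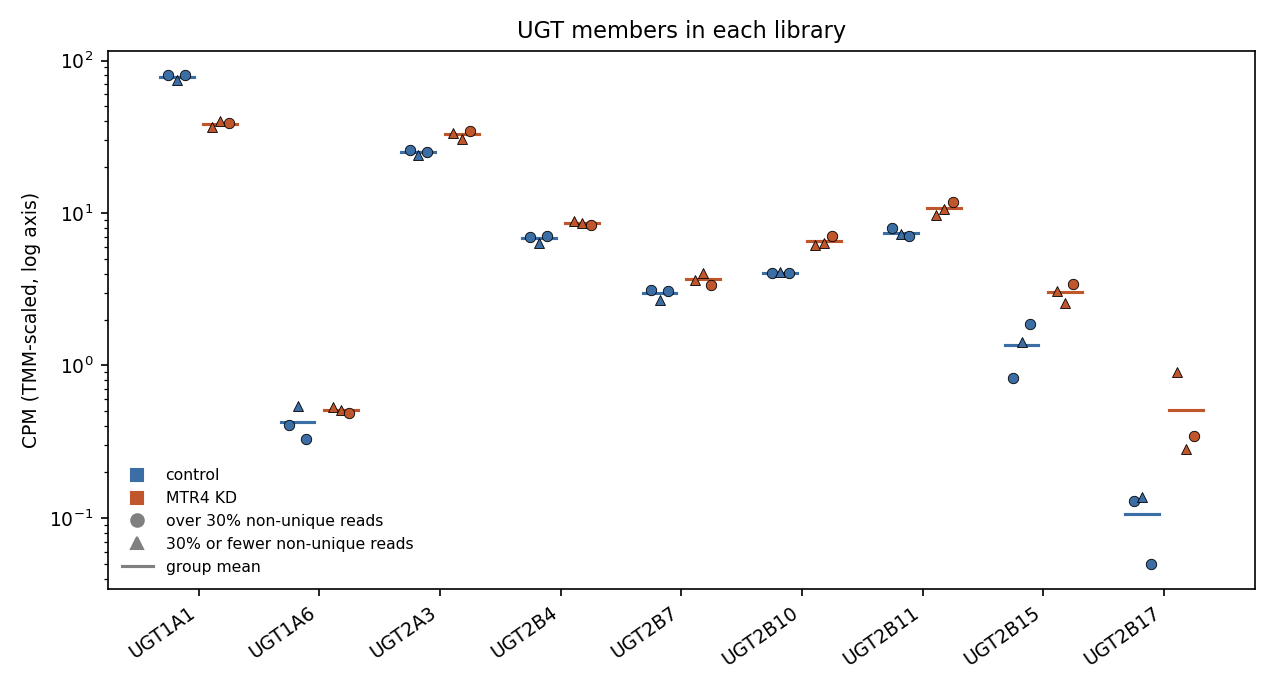
CPM of each member in each of the 6 libraries (log axis), with control in blue, MTR4 KD in orange, circles for libraries with over 30% non-unique reads, triangles for the others and a line at the mean of 3 libraries. UGT1A1 falls from 78.2 to 38.6 CPM on average, the 7 UGT2 members are higher in every MTR4 KD library than in any control library, and the UGT1A6 points overlap.

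All 9 members passed the filter on low counts, but UGT2B17 did so only through the MTR4 KD libraries, where it was high. It had 0.913, 0.284 and 0.343 CPM there and 0.130, 0.138 and 0.0497 CPM in control libraries. UGT2B17 is part of the 7 members apart, of the median and of the 6 members called with the covariate given below. Of the 9 members, 3 (UGT2A3, UGT2B10 and UGT2B11) lay past the limit used over all genes, an adjusted p under 0.05, on the higher side. On the lower side 1 (UGT1A1) did, beside 1.48% higher and 2.12% lower of the 18075 tested genes. For the members, 7 had MTR4 KD libraries all above and 1 had them all below the control libraries, beside 12.1% and 12.6% of tested genes. These counts come from the contrast that chose the members, and nothing is read from them. The median log2 fold change was 0.393 over the 9 members and 0.00619 over all tested genes. With the split by non-unique reads as a covariate, the counts were 6 and 1, all but UGT1A6 and UGT2B7, beside 9.43% and 10.8% of tested genes. When each of the 6 libraries was left out in turn, the count of 4 went to 2 without control 2 or MTR4 KD 3 and to 1 without any of the others.

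**Figure D2:**
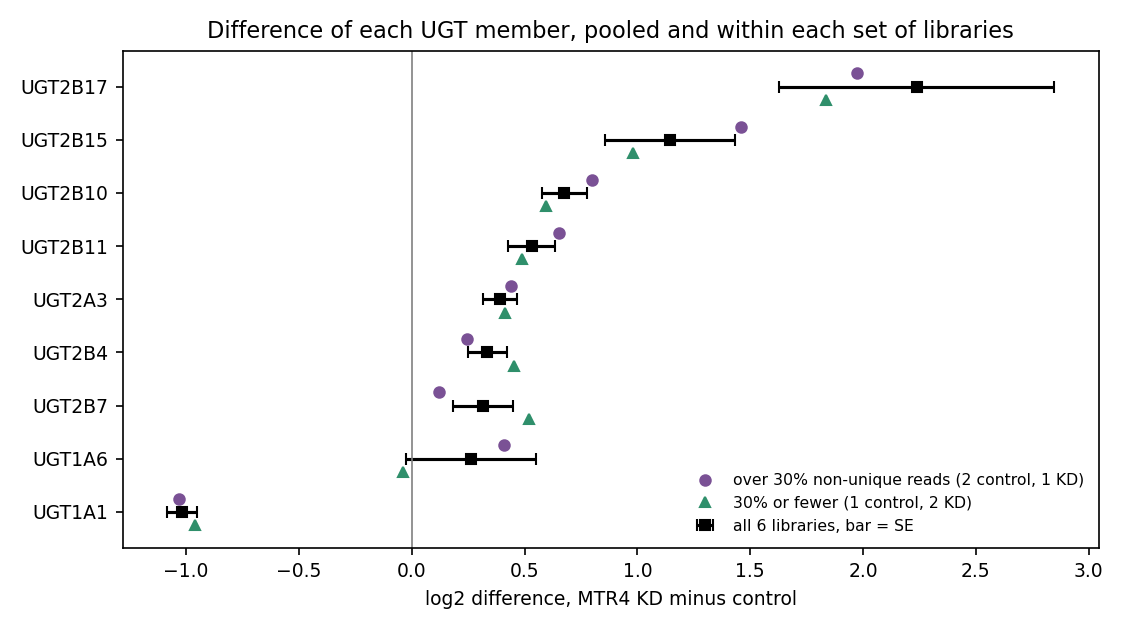
Log2 difference of MTR4 KD minus control (x axis) for each member, from the fit to all 6 libraries (squares, bars SE) and within libraries with more (circles) or fewer (triangles) non-unique reads. The 7 UGT2 members lie right of 0 in both sets, UGT1A1 lies near -1 in both, and UGT1A6 lies on either side of 0.

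The makeup of the UGT reads was different between the groups. UGT1A3 and UGT1A5 were not matched in the counts, so they are not among the 30 genes used here. UGT1A1 took 60.8%, 60.5% and 61.1% of all reads on the 30 genes with a UGT name in the control libraries and 34.8%, 38% and 35.2% in the MTR4 KD libraries. The exact 95% binomial intervals, which cover counting error only, spanned 59.4% to 62.2% and 33.7% to 39.2%. UGT2A3 took 19.8%, 19.4% and 19.1% in control and 31.8%, 28.9% and 31.1% in MTR4 KD libraries. There were 1.63, 1.63 and 1.66 reads of UGT1A1 for each read of the 7 UGT2 members in control libraries and 0.556, 0.637 and 0.568 in MTR4 KD libraries. The UGT2 members thus held the larger part of the counted reads in every MTR4 KD library and the smaller part in every control library. Of the 2361 bases of the canonical UGT1A1 transcript, 882 lie in no other gene, and reads only in the rest could not be given to it. These parts of reads are therefore not parts of transcripts. Per length, UGT1A1 was still the gene with the highest level in both groups.

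The sum over all 30 genes went from 129 ± 4.48 to 107 ± 3.41 CPM (SD, n = 3 each), and the sum of the 7 UGT2 members from 47.7 ± 1.62 to 65.9 ± 2.90 CPM. The higher UGT2 reads were thus fewer than the UGT1A1 reads that were missing. The remaining 21 UGT genes matched in the counts, pseudogenes included, all had group means under 1 CPM. Of these, UGT8, UGT1A4 and the pseudogenes UGT1A2P and UGT2B27P passed the filter, and their groups overlapped.

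**Figure D3:**
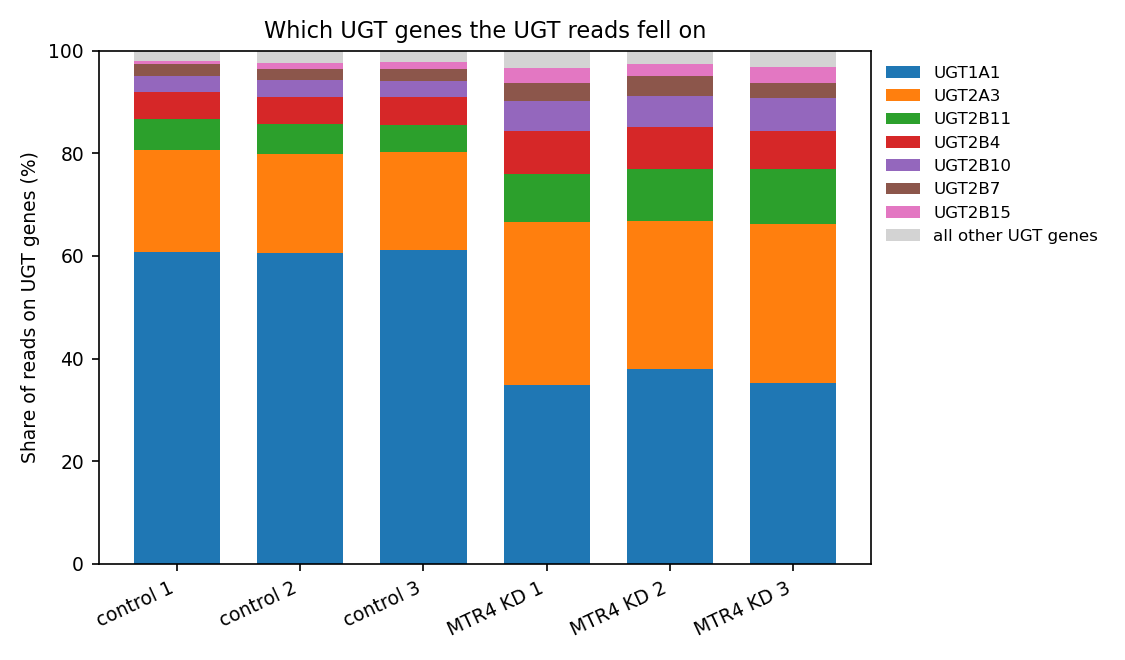
Share of the reads on UGT genes (y axis, percent) that fell on each gene, 1 bar per library, with UGT1A6 and UGT2B17 among all other UGT genes in grey. UGT1A3 and UGT1A5 were not matched and are not in the bars. UGT1A1 fills about 61% of each control bar and 34.8% to 38% of each MTR4 KD bar, and UGT2A3 widens from at most 19.8% to at least 28.9%.

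The split of the libraries by non-unique reads was not used to choose the members and could be tested. In a fit with condition and this split, 16.2% of tested genes were higher and 15.3% lower in the set with more non-unique reads, but 0 of the 9 members were called in edgeR's quasi-likelihood test, with 0 at an unadjusted p under 0.05 as well and 0 by DESeq2 or limma-voom. At an unadjusted p under 0.05 the share over all tested genes was 40.6%. The estimates ranged from -0.72 (SE 0.567, adjusted p = 0.378) for UGT2B17 to 0.14 (SE 0.0887, adjusted p = 0.279) for UGT2B11, and that of UGT1A1 was 0.07 (SE 0.0508, adjusted p = 0.37). UGT2B17, UGT1A6 and UGT2B15 had standard errors of 0.245 or more, so sizeable differences were not detectable at their depth.

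The enzymes need a sugar donor, exporters and regulators, and 31 such genes were examined, of which 30 passed the filter on low counts. None was called between MTR4 KD and control by edgeR's test, with 7 at an unadjusted p under 0.05 beside 18.8% of all tested genes. Limma-voom also called 0, and DESeq2 called 2 higher, HMOX1 and NR1I2, where it called 3.64% of its tested genes higher and 4.72% lower. With the split by non-unique reads as a covariate, 7 were higher and 2 lower, beside 9.43% and 10.8% of all tested genes. The median log2 fold change of the 30 genes was 0.0457. By the split itself 5 were higher and 7 lower in the set with more non-unique reads, beside 16.2% and 15.3% of all tested genes.

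Among the 6 genes of UDP-glucuronic acid supply, UGDH, which oxidises UDP-glucose to UDP-glucuronic acid, had the highest level, at 578 ± 52.6 CPM in control and 653 ± 53.1 CPM in MTR4 KD cells (SD, n = 3), with a log2 fold change of 0.18 (SE 0.0909, adjusted p = 0.353, edgeR). PGM1, UGP2 and UGDH, which act in turn from glucose phosphate to UDP-glucuronic acid, were all lower in the set with more non-unique reads, by log2 differences of -0.27, -0.23 and -0.21 (adjusted p = 0.00133, 0.000488 and 0.00154, edgeR). PGM2 differed by -0.22 on the log2 scale (adjusted p = 0.116) and fell with the covariate (adjusted p = 0.00238).

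Of the transporters, the export pump ABCC2, which carries glucuronides into bile, had 366 ± 6.32 CPM in control and 355 ± 5.56 CPM in MTR4 KD cells (SD, n = 3), a log2 fold change of -0.04 (SE 0.0519). SLCO1B3, a hepatocyte uptake carrier, did not pass the filter. GUSB, the lysosomal enzyme that cleaves glucuronides, had a log2 fold change of -0.10 (SE 0.0688). Of the genes that make bilirubin, HMOX1, the inducible heme oxygenase, had 119, 86.8 and 103 CPM in control and 133, 133 and 145 CPM in MTR4 KD libraries, with groups apart and a difference of 0.41 on the log2 scale (adjusted p = 0.116 by edgeR, 0.0286 by DESeq2 and 9.78e-05 by edgeR with the covariate). BLVRA and BLVRB, the biliverdin reductases, had log2 fold changes of 0.01 and 0.10.

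Of the 14 transcription factors known to act on UGT genes, NR1I2 (PXR), a receptor for drugs and bile acids, had the largest difference. It had 0.632, 0.649 and 0.531 CPM in control and 0.945, 1.38 and 1.17 CPM in MTR4 KD libraries, with groups apart and a log2 fold change of 0.95 (SE 0.234, adjusted p = 0.0847 by edgeR and 0.0311 by DESeq2). With the covariate RXRA, the partner of such receptors, PPARA, FOXA3 and NR1I2 rose, and AHR, the dioxin receptor, fell (edgeR). HNF4A, with 399 ± 9.38 and 409 ± 27.2 CPM (SD, n = 3), had a log2 fold change of 0.03 (SE 0.0665). FOXA3 was higher in the set with more non-unique reads by 0.64 on the log2 scale (adjusted p = 3.24e-07, edgeR).

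**Figure D4:**
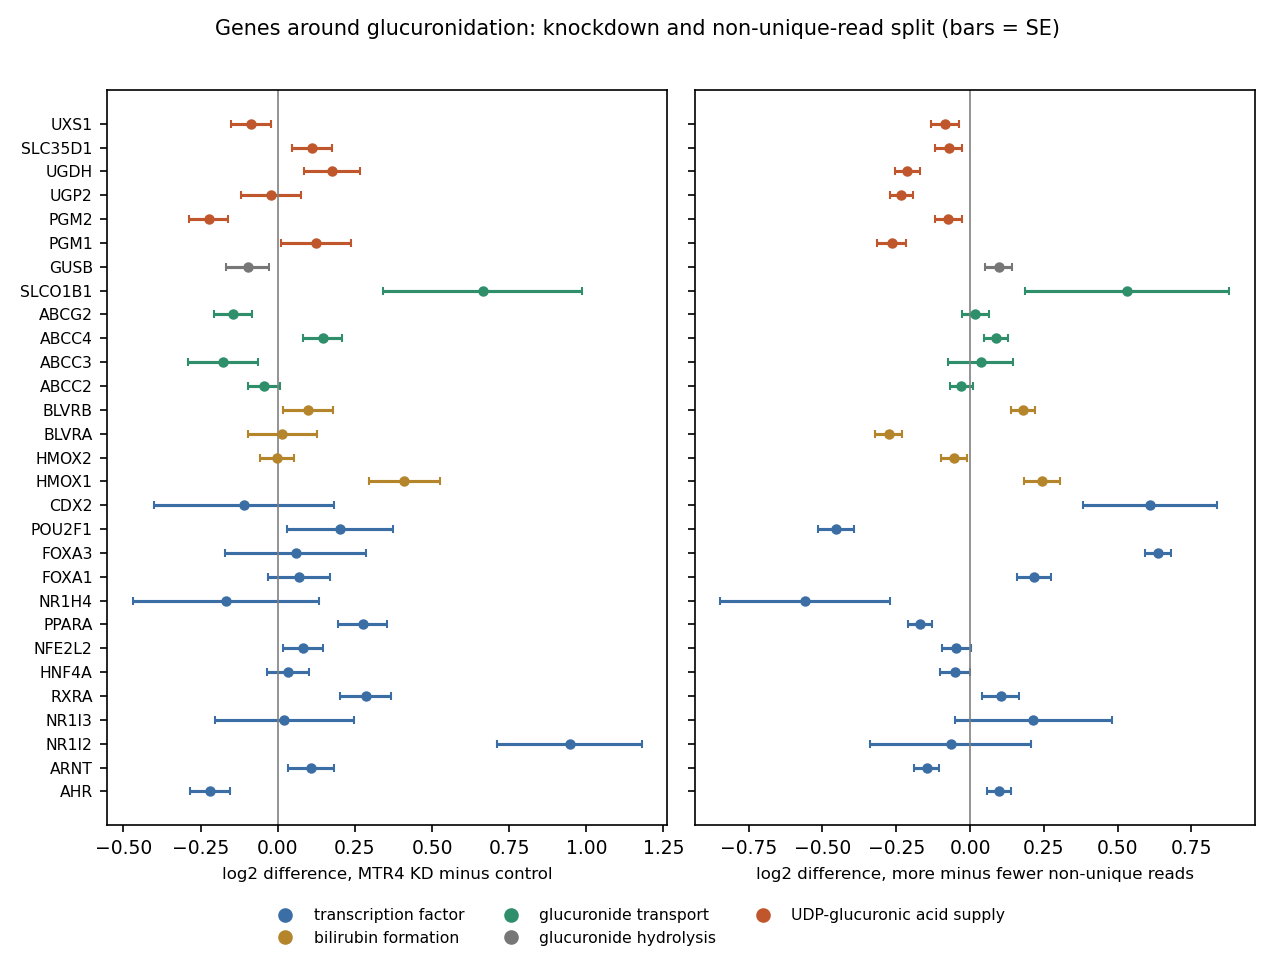
Log2 differences (x axes, bars SE) of 29 of the tested genes around glucuronidation, coloured by role, for MTR4 KD minus control (left) and for libraries with more minus fewer non-unique reads (right). NR1I2 lies farthest to the right on the left side at 0.95, while FOXA3 at 0.64 and POU2F1 at -0.45 lie far from 0 on the right side.

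Other conjugation genes, GSTA1, GSTA2 and SULT2A1, were taken for comparison with their differences already known. GSTA1, a glutathione transferase, went from 10.3 to 43.9 CPM, GSTA2 from 5.59 to 18.1 CPM and SULT2A1, which sulfates bile acids and steroids, from 1.47 to 5.82 CPM. Their log2 fold changes were 2.09, 1.70 and 1.99, against 0.316 to 2.24 over the 7 UGT2 members with a median of 0.531. The fitted value of UGT2B17, with the fewest reads, stood above all 3 of them, but with an SE of 0.61. This gene passed the filter on low counts only through the MTR4 KD libraries. Without MTR4 KD 1 the fitted value of UGT2B17 was 1.54. The values of the 3 other conjugation genes are from all 6 libraries and were not refitted without that library.

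Genes whose log2 CPM followed that of a member over the 6 libraries were ranked among 11661 genes as a description, since the 6 points share the 2 groups. The genes with the highest Pearson correlation to UGT1A1 were GBE1 (0.9985), UNC13A (0.9975), PTPRM (0.9971), CEMIP (0.997) and TUBB6 (0.9968), and 370 genes were above 0.95. The highest to UGT2A3 were CCL15 (0.9918), ADGRF3 (0.9917), CAT (0.9916), SH3BGRL2 (0.9911) and TIMM10 (0.991), and 117 genes were above 0.95. Among the members, UGT2B10 and UGT2B11 were closest to UGT2A3, at 0.956 and 0.943, and UGT1A1 had negative values with all other members, from -0.974 with UGT2B10 to -0.636 with UGT1A6.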

How the data were processed

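Raw counts of reads per Ensembl gene, which the authors deposited without normalization for each of the 6 libraries, were used as they stood. Per the labels, reads were aligned with HISAT2 2.1.0 to GRCh38 and counted with HTSeq, and DESeq2 is named there too. The counting mode and strand setting are not given in the sources used here. The 5 classes of unassigned reads were left out of library sizes. Symbols were matched by Ensembl gene ID (42395 genes). GENCODE v44 lifted to GRCh37 gave gene types, exon structure and transcript sequences, and positions and promoters came from RefSeq (GRCh38.p14).

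Genes were kept by filterByExpr (minimum count 10), scaled by TMM and compared with edgeR 4.0.16's quasi-likelihood test in R 4.3.3, with Benjamini-Hochberg adjustment over 18075 genes and a call at adjusted p under 0.05. The SE given with edgeR's log2 differences was derived from the test, as the absolute difference divided by the square root of the F statistic. CPM used TMM-scaled library sizes, and differences within a set of libraries used log2 CPM with 0.5 added to each count. limma 3.58.1 and DESeq2 1.42.0 served as alternatives. Sequences were compared with edlib 1.3.9.post1 in Python 3.11.15. The procedure was tested on simulated data that held a change by condition or by the split of libraries, never both. It therefore does not check the fit on condition alone where the split also differs. Replicates of a group differed by more than sampling noise (chi-square per degree of freedom 4.83 to 93.9).

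The members and gene lists were chosen with earlier results of these data known. Named were all members, all other UGT genes, the 31 partner genes, 3 other conjugation genes, MTREX, the markers and the 5 genes most like UGT1A1 and UGT2A3. UGT1A3, UGT1A5 and PECAM1 were not matched. The values of 1 partner gene are not reported here.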

Additional observations from a re-analysis of the deposited data

How the results depend on the processing

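The log2 fold changes of the 9 members kept their direction in all 131 values that the alternatives gave. The alternatives refit the same libraries from which the members were chosen, so nothing is read from this. Within the set with fewer non-unique reads, which is not among these alternatives, UGT1A6 had a log2 difference of -0.04. The number of members called, 4, went to 7 with the split by non-unique reads as a covariate, to 1 when a fold change over 2 was also required, and to 1 to 2 when each library was left out in turn. The number of all genes called, 650, went to 1363 with DESeq2, to 3649 with that covariate and to 150 with the fold limit, and lay between 137 and 803 without 1 library. For partner genes the count of 0 went to 2 with DESeq2 and 9 with the covariate. The cause was not tested. Of the differences between the sets of libraries, with 1 library left out that of UGT2B7 ranged from -0.1765 to 0.2328, UGT2B4 from -0.06079 to 0.1562, UGT2B15 from -0.08413 to 0.3271 and UGT2B10 from -0.01542 to 0.1758, changing sign. With the replicate number as a block, 5 members were called, UGT2B15 being added (log2 fold change 1.187). Deviations of same-numbered libraries correlated at -0.24, 0.325 and 0.352, and control 2 was closest to MTR4 KD 1 (0.36). Over all pairs of a control and an MTR4 KD library, correlations were positive within a set by non-unique reads and negative between the sets. They followed that split, so whether the numbers pair the libraries could not be settled from them. At 3 to 56 reads, UGT2B17 could show only large differences. A filter of 1 CPM in 3 libraries removed UGT1A6 and UGT2B17, which then gave no value, and merging paralogs gave none of their own for these genes.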
